A study of Mus musculus with 6 samples.

Results

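The genes described here encode lymphocyte quiescence factors, proteins known for holding resting T and B cells out of growth and division. They were chosen by gene name: the Krüppel-like factor genes Klf2, Klf3, Klf4, Klf6, Klf7 and Klf13, the forkhead gene Foxp1, and the antiproliferative genes Tob1, Btg1 and Btg2. These are 10 of the 54532 genes in the expression table, and all 10 passed the filter for low values. RNA was sequenced from BM cells of C57BL/6 mice at day 100 after transplantation, in 3 libraries labelled Phf6 wild-type (WT 1 to WT 3) and 3 labelled Phf6 knockout (KO 1 to KO 3). Donor cells of both groups were lineage-negative (Lin-) cells that received JAK3 M511I, an activating form of a Janus kinase, by retrovirus together with GFP, and they were given to lethally irradiated recipients to model T-cell acute lymphoblastic leukemia (T-ALL). WT donors were Phf6 fl/y, and KO donors were Vav1-Cre;Phf6 fl/y, in which the Vav1 promoter drives Cre in hematopoietic cells. The stroma of the recipient keeps Phf6, and the labels name the material as BM without saying whether GFP+ cells were sorted. They also do not say that each library is a separate mouse, so p-values measure the spread between these libraries, which may be technical.

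Krüppel-like factors are zinc finger proteins that bind CACCC and GC-rich elements. In T cells KLF2 is best known for keeping naive cells quiescent and for switching on S1pr1, which carries lymphocytes out of lymphoid tissue, and it is turned off after antigen receptor signaling. FOXP1 holds naive T cells at rest. TOB1, BTG1 and BTG2 belong to one antiproliferative family and bring the CCR4-NOT deadenylase to mRNAs, which shortens their poly(A) tails.

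The libraries held between 13015823 and 18235095 reads. Phf6 RNA did not separate the labels: its FPKM, a level scaled to gene length and to a size factor of the library, was 7.47, 3.67 and 8.02 in WT and 6.73, 5.50 and 5.11 in KO, with a log2 difference of -0.073 (limma, adjusted p = 0.893). The deletion takes out part of the gene, which a value per gene cannot show, so every direction given here rests on the labels. WT 2 stood apart. Across genes, its log2 levels correlated at 0.779 and 0.746 with WT 1 and WT 3, which correlated at 0.948 with each other, and 17.1% of its reads lay in genes shorter than 1000 bases against 3.11% to 5.01% elsewhere. FPKM was not scaled to the read total: reads divided by the library size implied by the FPKM came to 1.55 in WT 2 and 0.827 to 0.994 elsewhere. FPKM over all genes summed to 897352 in WT 2 and to 244936 to 329893 elsewhere, and each FPKM and marker sum of WT 2 is higher by this scaling than scaling to the read total would give. T cell markers were present in all 6 libraries, with a summed FPKM of 1404, 2726 and 1510 in WT and 1438, 1302 and 1203 in KO. Markers of other cells differed widely: the 14 neutrophil genes summed to 34330, 96380 and 6975 in WT and to 96.1, 276 and 295 in KO. In bulk BM, fewer cells of one type and less RNA per cell cannot be told apart.

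Of the 10 genes, 6 were lower in KO, none was higher and 4 did not pass the test, with none higher at an unadjusted p under 0.05 either. The genes that fell were Klf2, Klf6, Klf4, Tob1, Btg2 and Foxp1, in that order of size from 94.4-fold to 1.83-fold. Among all 13393 genes tested, 13.3% were called lower and 13.1% higher (limma on log2(FPKM + 1), Benjamini-Hochberg adjusted p under 0.05). The same 6 genes were the ones in which every KO library lay below every WT library, a pattern seen in 22.9% of all genes. Groups did not overlap in either direction in 49.1% of all genes, with every KO library higher in 26.2%, a pattern that none of the 10 showed. The median log2 difference of the 10 genes was -1.23, compared with 0.086 for all genes. The number called lower was 7 without WT 2, where 25.3% of all genes were called lower. It was 3 without WT 1, 3 without WT 3, and 2 without any 1 of the KO libraries, those 2 being Klf2 and Klf6. Among all 13393 genes, 1785 were called lower in the main model, 1383 without WT 1 and 1661 without WT 3. Without KO 1, KO 2 or KO 3 there were 1082, 996 and 1059. Rescaling to TPM, in which every library has the same sum, also left Klf2 and Klf6 as the calls, with 1081 of all genes called lower. It moved the share of all calls that were higher from 49.6% to 67.8% and the median of all genes to 0.86. Relative to that median the differences were close to those on the FPKM scale, for example -4.40 and -4.39 for Klf6.

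**Figure D1:**
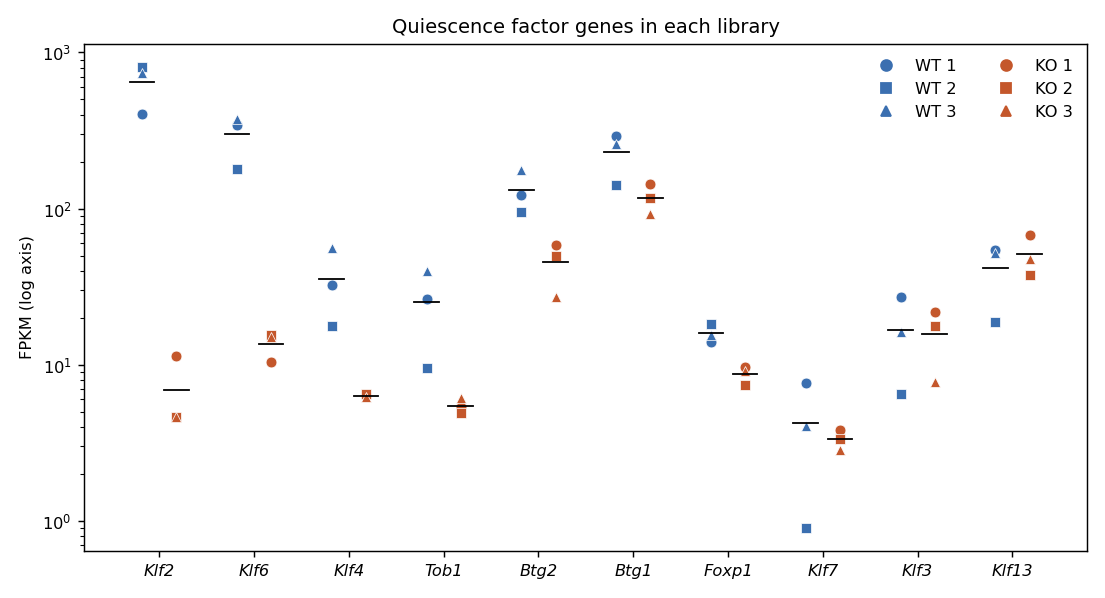
FPKM of the 10 quiescence factor genes (log axis) in each of the 3 WT and 3 KO libraries, with a line at the group mean. Klf2 fell from a mean of 650 to 6.88 and Klf6 from 299 to 13.7, while Klf3, Klf7 and Klf13 overlapped between groups.

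Klf2 (ENSMUSG00000055148, GRCm38 chromosome 8, 72319033 to 72321656, plus strand) had the largest fall of the 10. Its FPKM was 406, 806 and 738 in WT 1, WT 2 and WT 3 and 11.4, 4.64 and 4.61 in KO 1, KO 2 and KO 3. The lowest WT library was thus far above the highest KO library. The means were 650 ± 214 (SD, n = 3) and 6.88 ± 3.91 (SD, n = 3). The log2 difference was -6.41 with a standard error of 0.45 and a 95% interval from -7.48 to -5.34 (limma, adjusted p = 0.000340). Klf2 ranked 25 of the 13393 genes by size of fall, and it went from the 99.1 percentile of gene levels in WT to the 51.5 percentile in KO.

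Klf6 encodes a widely expressed Krüppel-like factor induced early by many stimuli (chromosome 13, 5861482 to 5870394, plus strand). It was measured at 340.5, 179 and 377 FPKM in WT and at 10.4, 15.4 and 15.1 in KO. All 3 KO libraries were again far below WT. The means of 299 ± 105 and 13.7 ± 2.80 (SD, n = 3 each) differed 21.9-fold, with a log2 difference of -4.30 (standard error 0.37, adjusted p = 0.000623). Klf2 and Klf6 passed the threshold in all 19 alternative analyses. Median-of-ratios scaling, counted among the 19 here and below, had factors of 1 and so repeated the main model.

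Klf4 is known as a brake on the proliferation of CD8 T cells and as a regulator of monocytes (chromosome 4, 55527143 to 55532466, minus strand). It had 32.2, 17.5 and 55.9 FPKM in WT and 6.30, 6.48 and 6.19 in KO. The WT libraries spread widely while those of KO lay almost on one value, with means of 35.2 ± 19.4 and 6.32 ± 0.144 (SD, n = 3). The log2 difference of -2.16 (standard error 0.42, limma, adjusted p = 0.0112) kept its sign in every alternative. It missed the threshold without KO 1, KO 2 or KO 3, with adjusted p-values from 0.0511 to 0.0524, and after rescaling to TPM, where it was -1.46 (adjusted p = 0.201).

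The other Klf members did not pass the test. Klf13, which regulates chemokine expression in T cells (chromosome 7, 63886351 to 63938915, minus strand), had 54.6, 18.9 and 51.8 FPKM in WT and 67.8, 37.4 and 47.6 in KO. Its log2 difference of 0.38 had a 95% interval from -0.76 to 1.52, and it was -0.10 without WT 2. Klf3, a repressor (chromosome 5, 64803388 to 64832901, plus strand), had 27.1, 6.45 and 16.1 FPKM in WT and 21.7, 17.8 and 7.69 in KO. Its interval ran from -1.39 to 1.42 around 0.017, and the range of KO lay within that of WT. Klf7 (chromosome 1, 64029447 to 64122282, minus strand) was the lowest of the 10, at 7.62, 0.8997 and 4.07 FPKM in WT and 3.82, 3.32 and 2.85 in KO, and its value in WT 2 rested on 86 reads. Its interval ran from -1.33 to 1.29 around -0.017, and its sign differed among the alternatives. With array weights, which gave WT 2 little weight, Klf7 passed at -0.89 (adjusted p = 0.00725), and without WT 2 it was at -0.62 (adjusted p = 0.0937). Exons of Klf3 and Klf7 overlap genes on the opposite strand, and since the use of strand in counting was not stated, reads there cannot be told apart.

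The make-up of Klf RNA differed between the groups. FPKM of the 6 genes summed to 868, 1029 and 1242 in WT and to 121, 85.0 and 84.1 in KO. Klf2 made up 46.8%, 78.3% and 59.4% of this sum in WT and 9.38%, 5.46% and 5.48% in KO. Klf13, whose own level did not pass the test, made up 6.29%, 1.83% and 4.17% in WT and 55.8%, 44.0% and 56.6% in KO. Klf6 contributed 17.4% to 39.2% in WT and 8.59% to 18.1% in KO.

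The sequence upstream of the start site is shown for the 3 Klf genes that fell and, for contrast, for Klf13, since these factors bind CACCC and GC boxes themselves. Each run is the 250 bases before the RefSeq transcript start (GRCm38.p6), 5′ to 3′ on the strand of the gene, with CACCC and GGGCGG in capitals on either strand (GGGTG and CCGCCC are their complements). The windows lie at chr8:72318812-72319061 for Klf2, chr13:5861239-5861488 for Klf6, chr4:55532476-55532725 for Klf4 and chr7:63938916-63939165 for Klf13.
Klf2: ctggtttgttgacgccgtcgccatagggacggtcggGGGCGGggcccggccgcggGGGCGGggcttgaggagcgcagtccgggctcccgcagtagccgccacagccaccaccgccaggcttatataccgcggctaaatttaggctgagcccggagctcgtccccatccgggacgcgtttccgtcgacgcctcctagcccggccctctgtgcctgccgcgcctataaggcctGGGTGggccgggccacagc
Klf6: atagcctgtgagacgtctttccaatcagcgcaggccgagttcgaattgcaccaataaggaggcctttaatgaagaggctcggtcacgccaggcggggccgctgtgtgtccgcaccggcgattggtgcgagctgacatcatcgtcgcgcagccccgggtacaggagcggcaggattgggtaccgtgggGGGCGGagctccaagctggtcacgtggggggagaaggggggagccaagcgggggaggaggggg
Klf4: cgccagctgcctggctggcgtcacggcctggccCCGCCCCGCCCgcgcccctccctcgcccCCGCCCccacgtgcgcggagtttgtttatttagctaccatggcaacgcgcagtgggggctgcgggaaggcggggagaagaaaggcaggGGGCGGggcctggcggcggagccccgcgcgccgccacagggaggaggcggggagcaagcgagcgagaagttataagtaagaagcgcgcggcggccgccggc
Klf13: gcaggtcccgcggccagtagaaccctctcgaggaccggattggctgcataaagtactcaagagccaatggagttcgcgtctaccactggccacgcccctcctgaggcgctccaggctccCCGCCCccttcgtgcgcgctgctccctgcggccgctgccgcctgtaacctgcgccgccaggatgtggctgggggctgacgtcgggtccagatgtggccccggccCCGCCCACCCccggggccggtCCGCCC
GGGCGG occurred 2 times in the window of Klf2, 1 time in that of Klf6, 4 times in that of Klf4 and 3 times in that of Klf13. CACCC occurred 1 time each for Klf2 and Klf13 and was not found for Klf6 or Klf4, and the CACCC of Klf13 shares bases with a GGGCGG. The RefSeq table had 12 start sites for the 10 genes. GGGCGG was in 11 of these 12 windows, against 32.7% of all 32851 windows, and CACCC in 7 of 12, against 52% of all. Windows of these genes held 45.2% to 78.4% G and C, compared with a median of 52.4% over all windows. The 45.2% was that of a Foxp1 window without GGGCGG, and the 11 windows with GGGCGG held 59.2% to 78.4%. Whether GGGCGG was more frequent than in other windows of like G and C was not tested. The forkhead element GTAAACA was found in the window of Btg1 alone (3.17% of all), TATAAA in those of Tob1 and Btg1 (12.4% of all), and the STAT-type element TTCNNNGAA in none of the 12 (7.02% of all). The windows of Klf13 and Klf2 both held each of CACCC and GGGCGG, so these letters did not part a gene that fell from one that did not pass.

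Foxp1, the forkhead repressor that keeps naive T cells at rest (chromosome 6, 98925338 to 99522721, minus strand), showed the smallest fall among those called. Its FPKM was 13.9, 18.1 and 15.5 in WT and 9.59, 7.36 and 9.05 in KO. The groups did not overlap, and the means were 15.8 ± 2.11 and 8.67 ± 1.17 (SD, n = 3). By limma the log2 difference was -0.80 (standard error 0.23, adjusted p = 0.0464). This call was close to the threshold: it held in 10 of 19 alternatives, and after rescaling to TPM the difference was -0.031 (adjusted p = 0.959), which relative to the median of all genes is -0.89, as on the FPKM scale. It was also lost without any 1 library other than WT 2.

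Among the antiproliferative genes, Tob1 fell most (chromosome 11, 94211454 to 94215495, plus strand). It had 26.4, 9.55 and 39.8 FPKM in WT and 5.33, 4.89 and 6.08 in KO, so that WT 2 came closest to the KO libraries. The means were 25.2 ± 15.1 and 5.43 ± 0.605 (SD, n = 3), and limma gave a log2 difference of -1.83 (standard error 0.50, adjusted p = 0.0384). Without any 1 library other than WT 2 the adjusted p lay between 0.0787 and 0.133, and without WT 2 the difference was -2.38.

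Btg2, a p53-inducible gene (chromosome 1, 134075170 to 134079120, minus strand), had 122, 95.3 and 176 FPKM in WT and 58.5, 49.9 and 26.9 in KO. No library of one group reached the other. The means were 131 ± 41.2 and 45.1 ± 16.3 (SD, n = 3), and the log2 difference by limma was -1.55 (standard error 0.40, adjusted p = 0.0318). The call held in 10 of 19 alternatives and was lost without any 1 library other than WT 2.

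Btg1 (chromosome 10, 96617006 to 96622809, plus strand) stayed among the highest of the 10 in both groups. It had 290, 141 and 259 FPKM in WT and 144, 116 and 91.8 in KO, with KO 1 just above WT 2. The log2 difference was -0.92, with a 95% interval from -1.87 to 0.034 (limma, adjusted p = 0.146). Without WT 2 it was -1.24 (adjusted p = 0.00514). The ratio of Btg1 to Btg2 was 2.37, 1.48 and 1.47 in WT and 2.47, 2.33 and 3.41 in KO.

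**Figure D2:**
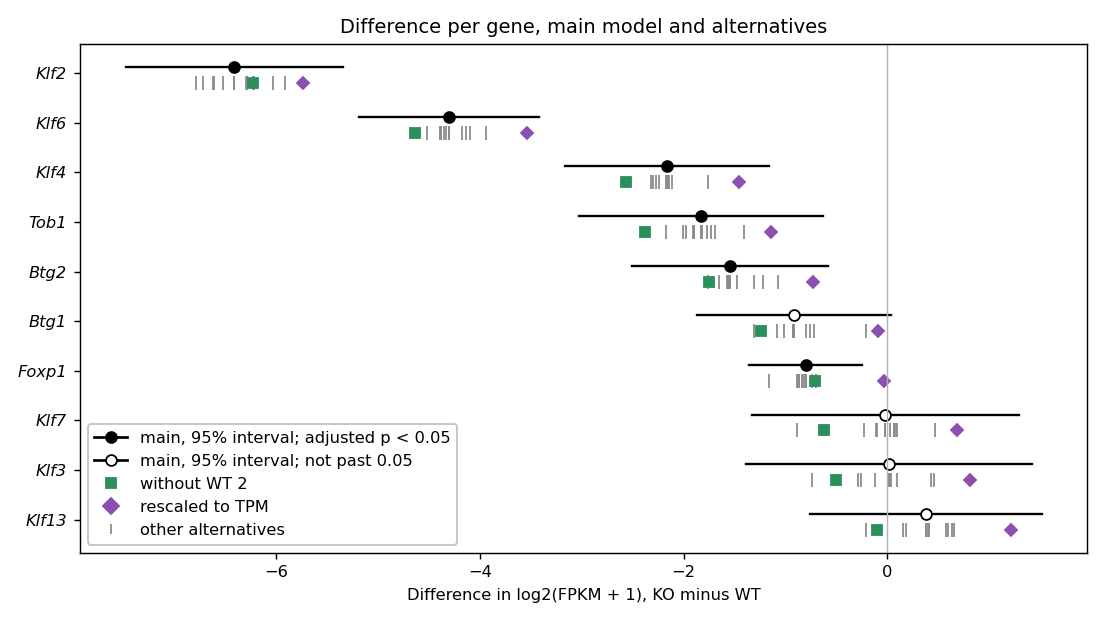
Difference in log2(FPKM + 1), KO minus WT, for each of the 10 genes, with its 95% interval in the main model and its value under the alternatives. Klf2 and Klf6 stayed far below 0 throughout, while Klf3, Klf7 and Klf13 lay on both sides of 0.

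The order of levels, on the per-length FPKM scale, changed between the groups. In WT, Klf2 came first, followed by Klf6, Btg1 and Btg2, whose neighbours overlapped, and then by Klf13, Klf4, Tob1, Klf3 and Foxp1, whose neighbours also overlapped. Klf7 was last, below the lowest value of Foxp1. In KO, Btg1 came first, then Klf13 and Btg2, which overlapped, then Klf3 and Klf6, which overlapped, then Foxp1, Klf2 and Klf4, with overlapping neighbours, and then Tob1 and Klf7. Among WT libraries, 8 of the 10 genes were lowest in WT 2, the exceptions being Klf2 and Foxp1, which were highest there. The median coefficient of variation of the 10 genes was 41.4% in WT and 21.4% in KO.

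Levels of the genes were set beside the marker sums of each library. Klf4, Klf6, Tob1 and Btg2 were highest in WT 3 and lowest in WT 2. The neutrophil sum of the WT libraries was lowest in WT 3 and highest in WT 2. Klf2 and Foxp1 were instead highest in WT 2 and lowest in WT 1, which was also the WT order of the B cell sums given below. WT 2 also differed in scaling and in its share of short genes, so these WT libraries cannot relate the levels to any marker sum. The 12 monocyte and macrophage genes summed to 2178, 5202 and 664 FPKM in WT and to 28.0, 34.9 and 37.9 in KO, with 7 of 10 tested genes lower, and all 14 neutrophil genes were lower. B cell markers summed to 710, 2471 and 1323 in WT and to 69.5, 33.2 and 15.8 in KO, with 2 of 5 tested genes lower, and 5 of 5 without WT 2. Erythroid markers summed to 68091 in WT 2 against 19.3 to 530 elsewhere, with none of 9 past the test (limma, 4 at an unadjusted p under 0.05). NK cell markers summed to 234, 146 and 256 in WT and to 592, 570 and 619 in KO, where Gzma made up most of the sum. Of the 6 NK genes tested, Gzma was higher and 5 were lower, and Klra8 had no reads in KO. Klra4 had no reads in KO, WT 1 or WT 3 and 10 reads in WT 2. Stromal and endothelial markers summed to between 5.91 and 18.2 in every library, the 1 gene tested was higher, and Kdr, Emcn and Tek had at most 3 reads in any library. Of the 12 T cell genes, Bcl11b was higher, Cd5 was lower and 10 did not pass. The part of these other cells in the falls of Klf2, Klf6, Klf4, Tob1, Btg2 and Foxp1 was not tested.

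**Figure D3:**
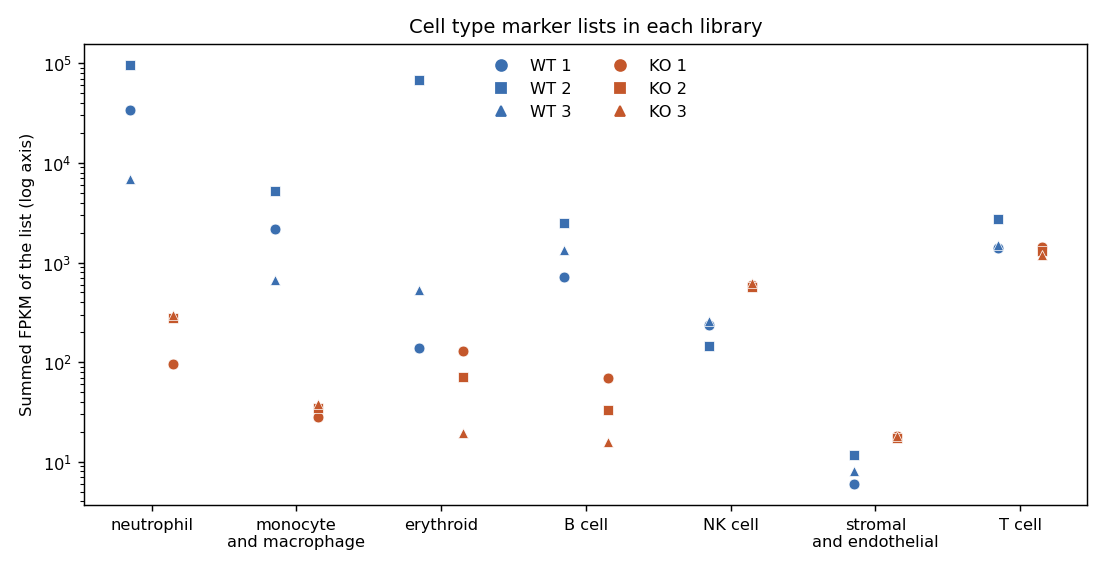
Summed FPKM of 7 marker lists (log axis) in each of the 3 WT and 3 KO libraries. Neutrophil sums lay between 6975 and 96380 in WT and at 295 or less in KO, while T cell sums lay between 1203 and 2726 in all 6.

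Other genes of the same families were examined next. Of 11 other Klf genes, 3 passed the filter, and 1 of them was lower: Klf16, at 10.3, 12.7 and 15.5 FPKM in WT and 3.995, 5.63 and 5.83 in KO, with a log2 difference of -1.17 (limma, adjusted p = 0.0200). Klf11 differed by -1.07 (adjusted p = 0.0551) and passed without WT 2 at -1.26 (adjusted p = 0.0116), and Klf10 differed by -0.51 (adjusted p = 0.235). The call of Klf16 was lost without WT 3, without KO 1, KO 2 or KO 3, with a replicate block, and after rescaling to TPM (-0.46, adjusted p = 0.510). Of 9 Sp genes, which encode the closest relatives of the KLF proteins, 4 were tested and none passed (limma, 0 at an unadjusted p under 0.05), with a median log2 difference of 0.57. Sp3 differed by 1.11 (adjusted p = 0.229), Sp1 by 0.95 and Sp4 by 0.18. These values rested on WT 2: without it the median was -0.12, Sp3 was at 0.40, Sp1 at 0.15 and Sp4 at -0.60, and none passed. Tob2 at -0.017 and Btg3 at 0.068 did not pass, although Btg3 was lower without WT 2 at -0.48 (adjusted p = 0.0242), and Btg4 was not tested. Foxp4 at -0.097 did not pass, and Foxp2 and Foxp3 were not tested. None of Tob2, Btg3 and Foxp4 had an unadjusted p under 0.05.

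The CCR4-NOT complex removes poly(A) tails and is the partner of TOB and BTG proteins. Of its 15 listed genes and partners, all tested, 5 were higher in KO, none was lower and 10 did not pass, with a median log2 difference of 0.48. Cnot6, a deadenylase subunit, had 22.3, 9.91 and 21.5 FPKM in WT and 58.3, 51.0 and 52.6 in KO, a log2 difference of 1.62 (limma, adjusted p = 0.0170). Cnot8, a deadenylase subunit that TOB and BTG proteins bind, had 17.8, 28.8 and 18.7 FPKM in WT and 47.0, 45.6 and 44.7 in KO, a log2 difference of 1.07 (adjusted p = 0.0266). Cnot2, at 1.04 (adjusted p = 0.0131), and Cnot9, at 1.01 (adjusted p = 0.0141), which encode subunits without enzyme activity, also rose, as did Pan2 of the second deadenylase. Pan3 at 0.61, Cnot1 at 0.60 and Prmt1 at 0.48 did not pass, and without WT 2 they were at 0.12, 0.34 and 1.01, of which Prmt1 passed (adjusted p = 0.00596). Cnot7 and Cnot6l, the other deadenylase genes of the complex, did not pass, both at 0.24 (limma, adjusted p = 0.704 and 0.758). Without WT 2 they were at -0.18 and -0.31. Tob1 and Btg2 were thus lower in the libraries in which 5 of the 15 genes, not the list as a whole, were called higher. With KO 1, KO 2 or KO 3 left out, none of the 15 passed by limma and 5 had an unadjusted p under 0.05, while 3 passed without WT 1, 4 without WT 3 and 7 without WT 2. With a replicate block, 1 passed. Among all genes, 3584 were called higher without WT 2, against 1754 in the main model.

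Other regulators of lymphocyte quiescence moved in both directions. Of 24 genes, 1 was higher, 5 were lower and 18 did not pass, with a median log2 difference of 0.051 that was -0.46 without WT 2 and 0.87 after rescaling to TPM. Gfi1, a zinc finger repressor, rose from 9.37, 5.26 and 7.29 FPKM in WT to 65.5, 39.1 and 30.5 in KO, a log2 difference of 2.43 (limma, adjusted p = 0.00425). Vsir, which encodes the inhibitory receptor VISTA, fell from 106, 101 and 62.5 FPKM to 14.1, 10.5 and 9.997, a log2 difference of -2.83 (adjusted p = 0.00134). Zfp36l1 and Zfp36, whose proteins bind AU-rich elements and promote mRNA decay, differed by -2.27 (adjusted p = 0.00866) and -2.31 (adjusted p = 0.0226). Bach2, a repressor of effector genes, differed by -1.27 (adjusted p = 0.0174), and Foxo1, which in T cells acts upstream of Klf2 and Il7r, was the other gene called lower. Slfn2 at -1.83, Tcf7 at 1.35 and Runx1 at 1.01 did not pass, although all 3 did without WT 2, at -1.17, 0.89 and 1.46. The number lower was 10 and the number higher 3 without WT 2. It was 3 lower without WT 1, 2 lower without KO 2 and 3 lower without KO 3, with Gfi1 alone higher in each, and rescaling to TPM gave 2 in each direction. Among all genes, 3383 were called lower and 3584 higher without WT 2, against 1785 and 1754 in the main model.

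Genes that are known targets of KLF2 and the other factors, or are linked to them in T cells, were listed together. KLF2 is known to switch on S1pr1 and to restrain Cxcr3, so the list mixes directions. Its count and median do not measure the activity of a factor. Of these 10 genes, 7 were lower, none was higher and 3 did not pass, with a median log2 difference of -2.58. S1pr1, the receptor for egress from lymphoid tissue and a known target of KLF2, had 93.8, 31.7 and 72.7 FPKM in WT and 0.546, 0.229 and 0.918 in KO, a log2 difference of -5.31 (limma, adjusted p = 0.000562). Ccl5, the chemokine RANTES and a known target of KLF13, had 1162, 3977 and 1451 FPKM in WT and 11.5, 1.98 and 8.41 in KO, a log2 difference of -8.06 (adjusted p = 0.000650). Klf13 itself did not pass the test, as given above. Cd69, an early activation marker that retains cells in tissue, differed by -4.68 (adjusted p = 0.000271), and the chemokine receptor gene Cxcr3 by -3.78 (adjusted p = 0.000480). In T cells Cxcr3 is known as a gene that KLF2 restrains, and here Cxcr3 was low in the libraries in which Klf2 was low. Cdkn1a at -0.66 and Bcl2l1 at 0.14 did not pass, and without WT 2 they were at -0.15 and 0.25. Several of these genes are also expressed in NK cells, myeloid cells or B cells, whose marker values are given above, and the part of those cells was not tested. Rescaling to TPM left 5 of the 10 lower.

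Of 16 growth and cycling genes, 15 were tested, 3 were higher, 1 was lower and 11 did not pass, with a median log2 difference of 0.83. Top2a, a DNA topoisomerase of dividing cells, had 20.0, 18.3 and 5.78 FPKM in WT and 41.5, 62.2 and 67.0 in KO, a log2 difference of 2.02 (limma, adjusted p = 0.0251). Ccnb1, the mitotic cyclin B1, differed by 1.85 (adjusted p = 0.0282), and Tfrc, the transferrin receptor, by 1.24 (adjusted p = 0.0147). Ccnd2, a cyclin of the G1 phase, fell from 44.0, 15.9 and 46.9 FPKM to 1.52, 2.26 and 2.13, a log2 difference of -3.49 (adjusted p = 0.00243). Mki67 at 1.53, Ccna2 at 1.45 and Myc at 1.03 did not pass, although all 3 did without WT 2, at 1.84, 1.99 and 1.08. The number higher was 8 without WT 2, 1 without WT 1, 1 without KO 1 and 0 by limma without KO 2 or KO 3 (3 and 4 at an unadjusted p under 0.05), and Ccnd2 was lower in each. Rescaling to TPM gave 8 higher. Among all 13393 genes tested, 1754 were called higher in the main model, 3584 without WT 2 and 1237 without WT 1. They numbered 989, 938 and 962 without KO 1, KO 2 or KO 3, and 2279 after rescaling to TPM.

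**Figure D4:**
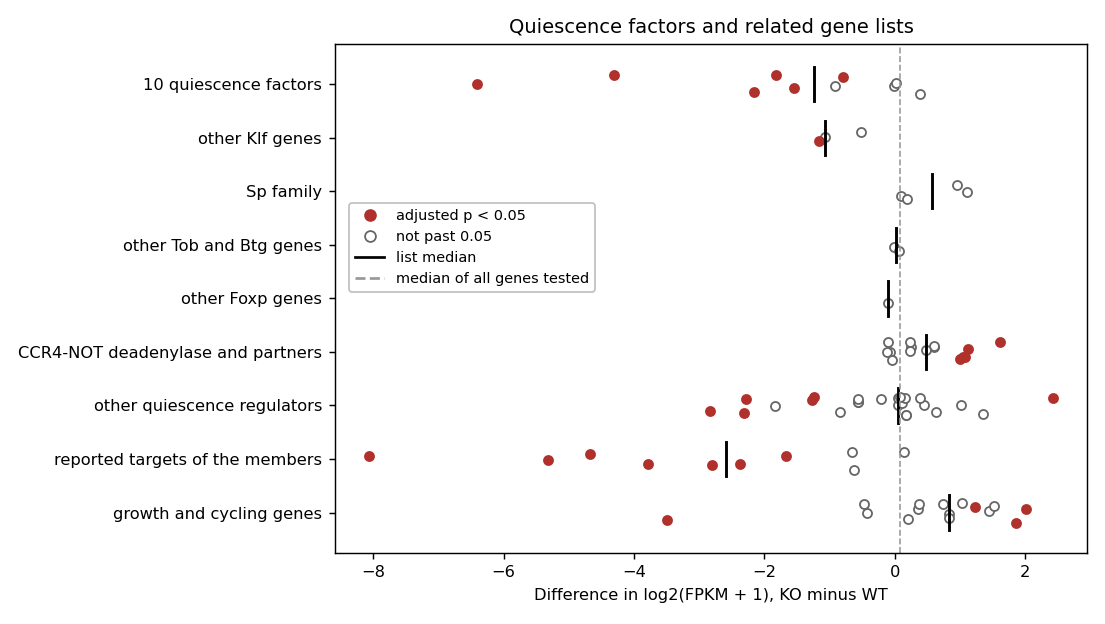
Difference in log2(FPKM + 1), KO minus WT, for each tested gene of the 10 quiescence factors and of 8 related lists, with the median of each list and of all genes tested. The 10 factors had a median of -1.23 and the genes linked to them -2.58, while the CCR4-NOT list had 0.48 and the growth and cycling list 0.83.

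Genes with the profiles closest to each factor were picked by the root mean square (RMS) distance between gene-centred log2(FPKM + 1) values over the 6 libraries, among 10378 protein-coding genes. Klf2 was closest to Ccr7, the receptor that brings naive T cells into lymph nodes, at an RMS of 0.349, and next to Rhob at 0.513. Klf6 was closest to Pmaip1, which encodes the BH3-only protein NOXA, at 0.240, and to Gabbr1 at 0.272. Klf4 was closest to Dusp18 at 0.0736 and Zbtb4 at 0.137, and Tob1 to Osbpl5 at 0.0861 and Mllt6 at 0.1799. These distances are descriptions over 6 libraries in which the labels and the difference of WT 2 are shared by all genes. The added 1 compresses low values, so a gene near 0 in KO can lie close to a factor that is not. Dusp18 had 0.0116, 0 and 0 FPKM in KO, where Klf4 had 6.30, 6.48 and 6.19. Pmaip1 had 0.0609, 0.168 and 0.117 in KO, where Klf6 had 10.4, 15.4 and 15.1. Rhob, Gabbr1 and Zbtb4 were also far below their factor in KO. Btg2 was nearest to Ccdc50 at 0.186 and Ddhd2 at 0.265, and Btg1 to B4galt5 at 0.0995 and Clk1 at 0.129. Foxp1 was nearest to Rmnd5b at 0.0651 and Mrpl24 at 0.0825. Among the genes that did not pass, Klf13 was nearest to Hbp1 at 0.0936 and to Ikzf1, the lymphoid regulator Ikaros, at 0.104. Klf3 was nearest to Sav1 at 0.184 and Lysmd3 at 0.254, and Klf7 to Tut7 at 0.134 and Atrn at 0.136.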

How the data were processed

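RNA was measured in 6 BM libraries. Per the labels and methods, the authors extracted RNA with Trizol, made NEBNext libraries and sequenced paired-end reads on a NovaSeq. The submitters' processing notes name HISAT2 2.0.5, featureCounts 1.5.0-p3 and the builds GRCm38 and mm10. The authors deposited FPKM, normalized to gene length and to a library size that was not the read total. How that size was set is not given in the sources used here. Median-of-ratios factors computed on the deposited FPKM were 1 in all 6 libraries, so the FPKM already had that scaling. The authors tested differences with DESeq2, a model for counts. Neither the release of the annotation nor the strand setting is given in the sources used here. The same deposit gives gene length and coordinates, and 53499 of 54532 genes had identical coordinates in the GENCODE annotation of GRCm38 used here. FPKM multiplied by length gave whole reads (tolerance 0.001) for 100% of values, and the sum of these is the depth given. At a depth of 13015823 to 18235095 reads, the 10 genes had between 86 and 25642 reads per library.

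The genotype labels carry a gene symbol whose last digit rises from sample to sample, and the design text names Phf6, so Phf6 was read for all. Genes with an FPKM of 1 or more in 3 or more of the 6 libraries were tested, 13393 in all. KO was compared with WT by limma 3.58.1 (R 4.3.3, data.table version 1.17.8; a two-sided moderated test with an intensity trend) on log2(FPKM + 1), which understates the change of low genes, with Benjamini-Hochberg adjustment over all genes and calls at an adjusted p under 0.05. Exact permutation of 3 against 3 libraries gives no p below 0.1 and was not used. The script was tested on simulated data. Tables were handled in pandas 2.3.3, SciPy 1.17.1 and NumPy 2.4.6 under Python 3.11.15, and plots were drawn in Matplotlib 3.10.9.

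The members, gene lists and tests were chosen with earlier results of these data known. Besides all 10 members, the genes named are up to 4 past the threshold in each direction and up to 3 others with the largest difference in each list. Pan2, Cnot7, Cnot6l, Foxo1, Gzma, Cd5, Bcl11b, Klra8, Klra4, Kdr, Emcn, Tek and genes not tested were named outside this rule, after their values were seen. The value of 1 listed gene is not reported here. Likeness used the 2 nearest protein-coding genes per member. Alternatives were pseudocounts of 0.1 and 0.5, no filter, a minimum mean FPKM of 5, median-of-ratios scaling (factors of 1, equal to the main model), quantile normalization, rescaling to TPM, no trend, array weights, removal of a length trend, voom on recovered reads, protein-coding genes only, a replicate block, and leaving out each library. Promoter windows came from RefSeq.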

Additional observations from a re-analysis of the deposited data

How the results depend on the processing

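The number of the 10 factors called lower was 6 in the main model, 3 without a filter on low values, 2 after rescaling to TPM, 8 with array weights, which added Btg1 and Klf7, and 2 to 7 when 1 library was left out. None was called higher in any alternative. Over all genes, 1785 were called lower in the main model, 1081 after rescaling to TPM and 4073 with array weights. Without a filter, where more genes were tested, 1803 were called lower. The number of all genes called was 8461 with array weights, 1837 at a mean FPKM of at least 5, and 1934 to 6967 with 1 library left out. Calls in the 8 related lists numbered 23 in the main model, 47 with array weights, 13 with a replicate block and 10 to 39 with 1 library left out. Array weights gave WT 2 a weight of 0.051. The causes of these shifts were not tested.

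With the replicate number as a block, 4 factors were lower and 2676 genes were called. Deviations of samples with the same number correlated at 0.0954, 0.105 and -0.153, and not every sample correlated best with its own number. Samples with different numbers correlated between -0.195 and 0.232, so these values show no pairing by number. With 3 libraries per group and WT 2 apart, they cannot exclude a pairing either.

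Signs turned only for genes that had not passed. Under TPM, the log2 difference was 0.68 for Klf7, 0.69 for Phf6, 0.056 for Cdkn1a, 0.72 for Foxp4, 0.20 for Klf10 and 0.80 for Tob2. Array weights gave -0.74 for Klf3, -0.21 for Klf13, -0.50 for Btg3, 0.22 for Foxp4 and -0.50 for Sp4. Quantile normalization gave -0.00374 for Btg3, 0.054 for Foxp4 and 0.027 for Tob2. Klf3 was at -0.29 after removal of the length trend. Klf7 was at 0.099 and 0.030 with pseudocounts of 0.1 and 0.5 and at 0.071 with voom. With 1 library left out, Klf3 ranged from -0.50 to 0.46, Klf7 from -0.62 to 0.47, Klf13 from -0.10 to 0.64, Btg3 from -0.48 to 0.36, Foxp4 from -0.32 to 0.34, Sp4 from -0.60 to 0.66, Tob2 from -0.39 to 0.32 and Phf6 from -0.37 to 0.10.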

Other observations

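Several Klf genes were at or above 1 FPKM in fewer than 3 libraries and were not tested. They are given as values and were chosen after these were seen. Klf9, a Krüppel-like factor induced by glucocorticoids, had 11.4, 0.965 and 15.1 FPKM in WT and 0.0823, 0.117 and 0.0761 in KO. Klf5 had 2.90, 3.55 and 0.682 FPKM in WT and 0, 0.0366 and 0.0119 in KO. Klf1, the erythroid member of the family, had 25.8 FPKM in WT 2 and between 0.254 and 1.22 in the other libraries, and WT 2 was also the library with the high erythroid sum.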
